A study of Mus musculus with 16 samples.

Results

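The genes described here are 8 genes of cholesterol synthesis and its control: Hmgcs1, Idi1, Fdft1, Sqle, Lss and Cyp51, which encode enzymes of the pathway, and Insig1 and Srebf2, which encode regulators of it. They were taken by gene name from 46078 genes counted in bulk RNA-seq libraries of sorted mouse erythroblasts, and all 8 were found and passed the count filter in every comparison. None of the 8 is itself an uptake gene; the receptors and transporters of cholesterol uptake were read as a separate list of genes.

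Polychromatic (Poly-E) and orthochromatic (Ortho-E) erythroblasts are the last nucleated stages of terminal erythroid differentiation. They were sorted by Ter119 and CD44 out of steady-state bone marrow of wild-type (Ypel4+/+) and Ypel4-null (Ypel4-/-) mice, with 4 libraries in each of 4 groups. The Ypel4-/- mice were homozygous for the tm1a(EUCOMM)Wtsi allele, a germline allele that is present in every cell and not in erythroid cells alone. The labels name the same C57BL/6N background, which also carries the A tm1Brd coat colour allele, for both genotypes, and they give neither treatment nor age. The comparisons asked how the 8 genes differed between the populations and whether that, or their level within a population, differed without Ypel4, which encodes a small conserved protein of the Yippee-like family.

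Cells make cholesterol from acetyl-CoA by way of mevalonate, isoprenoid units, squalene and lanosterol. When sterols run low in the endoplasmic reticulum, the transcription factor SREBP2 is escorted to the Golgi, cleaved and sent to the nucleus, where it raises the genes of synthesis and uptake; INSIG1 retains the SREBP2 escort complex in the endoplasmic reticulum. Erythroblasts build the membrane of the red cell, which has no nucleus with which to make new enzymes and exchanges its cholesterol with plasma lipoproteins.

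The bases just upstream of 4 of the genes are shown because SREBP2 acts through short motifs near the start of its target genes. They are from RefSeq (GRCm38.p6, + strand, 5′ to 3′) and end before the start of the gene model used for counting. Capitals mark CCAAT, the motif of NF-Y, which on the opposite strand reads ATTGG, and TCACNCCAC, a core of the sterol regulatory element, searched on both strands. The matching stretches of Idi1 and Cyp51 held neither motif and are not shown.
Hmgcs1, chr13:119690101-119690350: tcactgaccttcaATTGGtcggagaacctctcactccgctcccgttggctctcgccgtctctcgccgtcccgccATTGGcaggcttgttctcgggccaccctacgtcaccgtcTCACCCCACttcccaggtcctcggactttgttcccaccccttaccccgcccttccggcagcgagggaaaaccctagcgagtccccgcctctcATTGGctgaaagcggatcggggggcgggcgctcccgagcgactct
Lss, chr10:76531355-76531587: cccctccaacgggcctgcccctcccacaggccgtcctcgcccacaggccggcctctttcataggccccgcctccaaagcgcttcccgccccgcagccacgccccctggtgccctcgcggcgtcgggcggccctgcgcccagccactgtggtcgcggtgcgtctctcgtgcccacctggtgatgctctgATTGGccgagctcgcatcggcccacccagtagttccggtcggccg
Insig1, chr5:28071162-28071362: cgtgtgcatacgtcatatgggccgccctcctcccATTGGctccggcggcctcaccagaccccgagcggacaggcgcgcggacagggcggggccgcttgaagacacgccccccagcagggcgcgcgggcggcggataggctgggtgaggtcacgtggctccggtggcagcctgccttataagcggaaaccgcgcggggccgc
Srebf2, chr15:82147019-82147265: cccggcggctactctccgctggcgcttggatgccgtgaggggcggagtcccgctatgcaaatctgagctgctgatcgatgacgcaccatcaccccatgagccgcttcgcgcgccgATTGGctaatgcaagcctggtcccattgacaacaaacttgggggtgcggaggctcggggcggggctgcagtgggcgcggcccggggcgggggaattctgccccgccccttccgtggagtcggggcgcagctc

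RefSeq promoter windows, from 250 bases before to 50 after the start, were at hand for 6 of the 8 genes; Fdft1 and Sqle had no entry. CCAAT was present in all 6, against 37.4% of 32851 promoters. Hmgcs1 had 4 copies, at -237, -176, -45 and 11 from the start. Idi1 had copies at -45 and -14, and Lss, Cyp51, Insig1 and Srebf2 had 1 each, at -62, -29, -216 and -135. TCACNCCAC was found in the Hmgcs1 window alone, at -137, against 1.24% of all promoters. Neither TCACGTGA, an E box form (0.974% of promoters), nor AGATAA, the core bound by GATA factors (11.2%), was in any of the 6 windows. These matches describe letters and not binding.

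Library totals ran from 2670173 to 12451234 counts assigned to genes. Levels are given as counts per 1000000 (CPM) with library sizes scaled by TMM factors, except where CPM of library totals is stated. The check of the targeted gene followed the labels: Ypel4 was at 490 to 716 CPM in Ypel4+/+ Poly-E and at 9.9 to 23.6 in Ypel4-/- Poly-E, while in Ortho-E it reached 4430 to 5440 with the gene intact and 175 to 224 without it. Erythroid markers summed to 93600 to 108000 CPM of library totals in Poly-E and 161000 to 195000 in Ortho-E, with a count for all 11 markers found in the files. The neutrophil and monocyte list summed to at most 13 CPM, the macrophage list to at most 9.18, and the T and NK cell list to at most 2.47 with Cd3e at 0 throughout. The megakaryocyte list reached 40.8 to 75.2 CPM with Gp1bb at 0 throughout. Most of that sum was Itga2b (21.0 to 35.4 in Poly-E, 55.8 to 67.7 in Ortho-E) and Gp9 (12.2 to 19.8, and 4.77 to 7.94). Pf4, Ppbp and Treml1 reached at most 1.25, 7.01 and 0.751. A set of 7 libraries stood apart from the other 9 within the groups: replicates 1 and 2 of both Poly-E groups and of Ypel4+/+ Ortho-E, and replicate 1 of Ypel4-/- Ortho-E. The set was found from the first component of the deviations from the group means, over 5275 genes without the 8, which held 36.2% of the variance. The labels do not say what the set is, and Ypel4-/- Ortho-E replicate 2 lay outside it, unlike the other replicates of its number. The members' values within and outside the set are given where they differ.

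**Figure D1:**
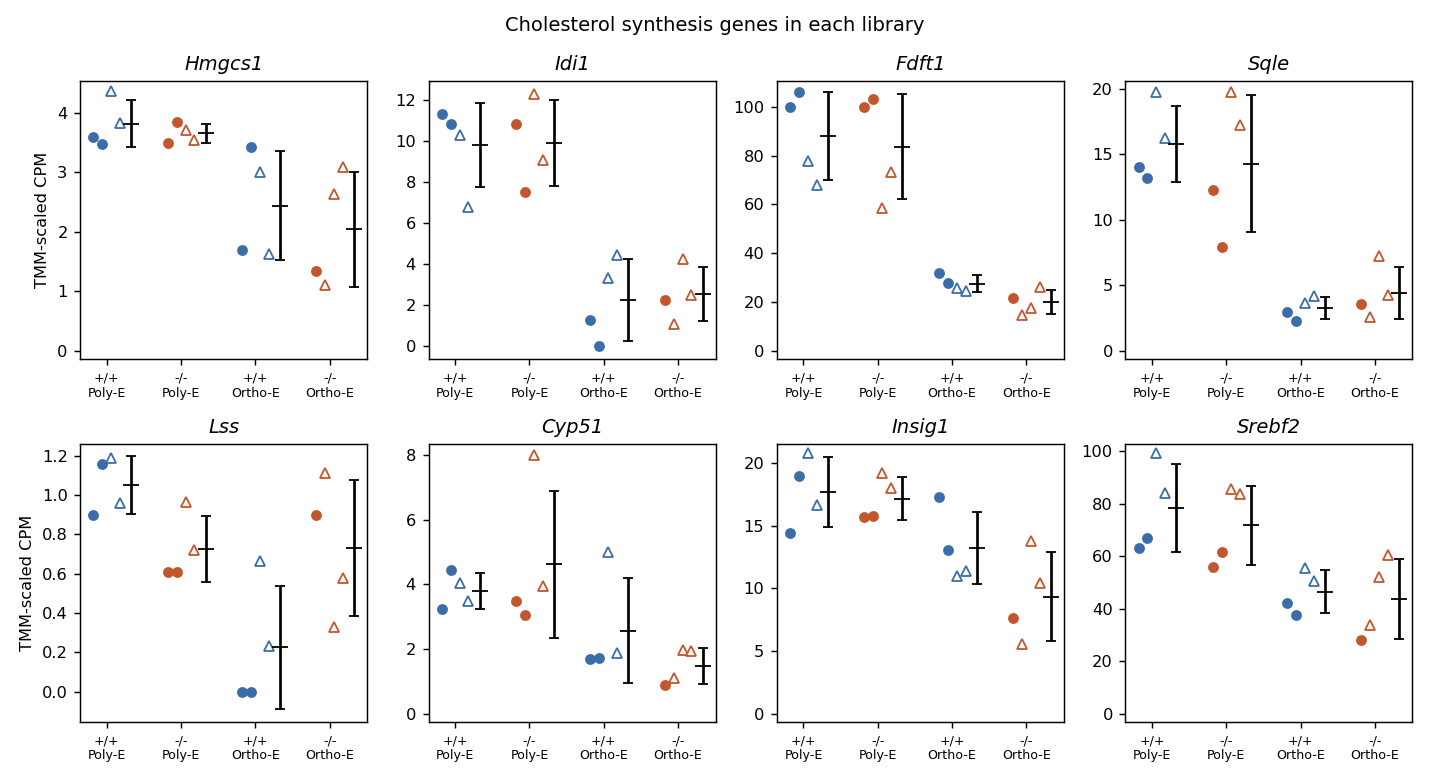
CPM on the TMM scale of each of the 8 genes in the 16 libraries, by genotype and population, with the mean and SD of each group in black (n = 4). Blue is Ypel4+/+ and orange is Ypel4-/-; filled circles are the set of 7 libraries that stood apart and open triangles are the other 9. Every Ortho-E library of Fdft1, Sqle, Idi1 and Hmgcs1 lies below every Poly-E library of its genotype.

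Most of the 8 genes were lower in Ortho-E than in Poly-E, and none differed between the genotypes past the threshold. In Ypel4+/+, 5 of the 8 fell in Ortho-E (Idi1, Fdft1, Sqle, Lss and Srebf2), with the background that 32.1% of the 11747 genes tested fell and 26.4% rose. In Ypel4-/-, 6 of the 8 fell (Idi1, Fdft1, Sqle, Cyp51, Insig1 and Srebf2), against 31.5% of 11973 genes that fell and 29.5% that rose. No member rose in either genotype. The median log2 fold change of the 8 was −1.17 in Ypel4+/+ and −1.05 in Ypel4-/-, beside −0.19 and −0.09 over all genes tested. Adjusted p-values come from the quasi-likelihood test of edgeR, adjusted by Benjamini-Hochberg over all genes tested, and a gene was called to rise or fall at an adjusted p under 0.05. In bulk populations, a lower level in fewer cells and less RNA in every cell cannot be told apart.

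The size of the fall depends on the scale. On library totals, the median of all genes moved to −1.45 in Ypel4+/+ and −1.47 in Ypel4-/-, shifts of −1.26 and −1.39. On that scale all 8 members fell in Ypel4+/+ (60.3% of all genes did) and 7 fell in Ypel4-/- (60.9%), Lss being the exception, with a median of −2.46 in both. Calls on all genes were lower in Ortho-E for 54.9% and 51.6% of called genes on the TMM scale, and for 85.3% and 84.5% on library totals. The early erythroid and progenitor list summed to 12.5 to 22.3 CPM of library totals in Poly-E and 2.05 to 6.53 in Ortho-E; its part in these differences was not tested.

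**Figure D2:**
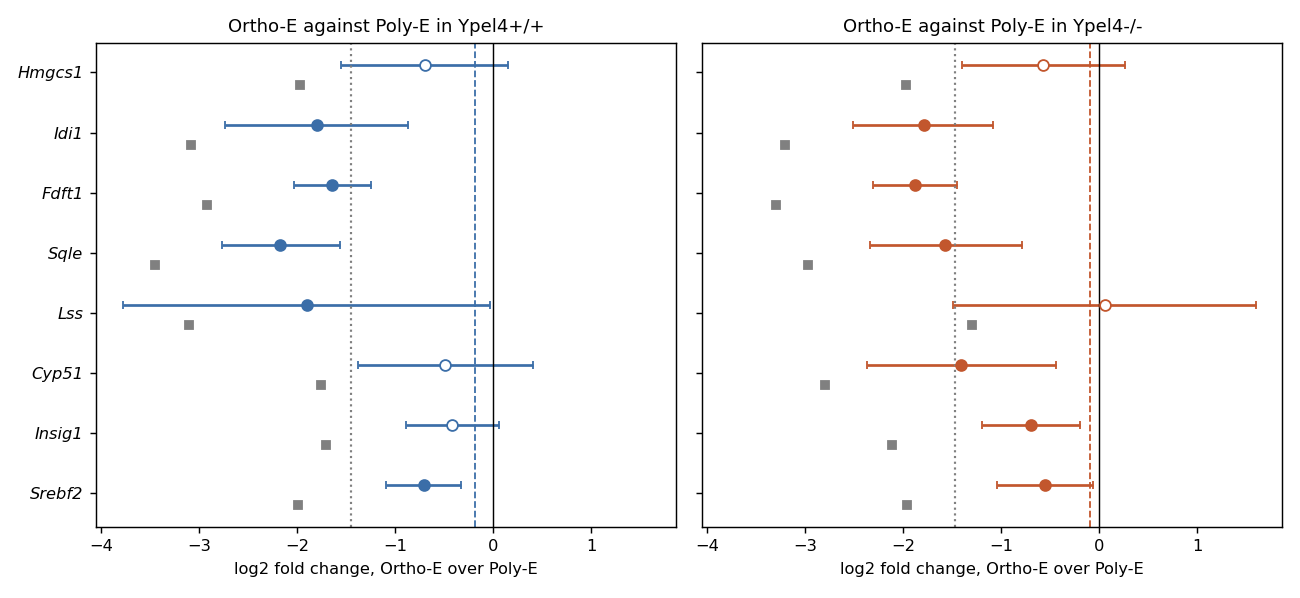
Log2 fold change of Ortho-E over Poly-E for the 8 genes in each genotype, with 95% intervals on the TMM scale (circles, filled where called) and the value on library totals (grey squares). The dashed and dotted lines are the medians of all genes on the TMM scale and on library totals; Fdft1, Sqle and Idi1 lie below the dashed line in both genotypes with intervals that do not reach it.

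Hmgcs1 (ENSMUSG00000093930, chromosome 13, 119690462 to 119708086, + strand, GRCm38) encodes the cytosolic HMG-CoA synthase, which acts early in the pathway, before mevalonate. Wild-type levels were 3.59, 3.48, 4.37 and 3.83 CPM in Poly-E replicates 1 to 4, against 1.69, 3.43, 3.0 and 1.63 in Ortho-E. Ypel4-null levels were 3.5, 3.85, 3.72 and 3.55 CPM in Poly-E, against 1.35, 1.11, 2.63 and 3.09 in Ortho-E. Every Ortho-E library was below every Poly-E library in both genotypes, but the gap was narrow in Ypel4+/+, where Ortho-E replicate 2 almost met the lowest Poly-E value, and the Ortho-E libraries spread the more widely. The log2 fold change did not pass the threshold in either genotype, at −0.7 (SE 0.35, 95% interval −1.55 to 0.15, adjusted p = 0.0868) in Ypel4+/+ and −0.57 (SE 0.34, −1.4 to 0.26, adjusted p = 0.147) in Ypel4-/-.

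Idi1 (ENSMUSG00000058258, chromosome 13, 8885501 to 8892451, + strand, GRCm38) encodes isopentenyl diphosphate isomerase, which interconverts the isoprenoid building units. The Ypel4+/+ libraries held 11.3, 10.8, 10.3 and 6.78 CPM in Poly-E, compared with 1.27, 0, 3.33 and 4.43 in Ortho-E. The Ypel4-/- libraries held 10.8, 7.49, 12.3 and 9.05 CPM in Poly-E, compared with 2.25, 1.11, 4.27 and 2.51 in Ortho-E. The groups were apart in both genotypes; the count of 0 in Ypel4+/+ Ortho-E replicate 2 allows up to 1.12 CPM of that library's total (3 counts, counting error only). Idi1 fell by 1.8 on the log2 scale in Ypel4+/+, or 3.48-fold (SE 0.38, adjusted p = 0.000401), and by 1.79, or 3.46-fold, in Ypel4-/- (SE 0.29, adjusted p = 2.56e-06). Within the set of 7 libraries the Ypel4+/+ value was −3.76 and outside it −1.06, where in Ypel4-/- the values were −1.79 and −1.86.

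Fdft1 (ENSMUSG00000021273, chromosome 14, 63145153 to 63177793, - strand, GRCm38) encodes squalene synthase, the first enzyme committed to sterols, and had the highest level per length of the 8 in Poly-E. Wild-type levels were 100, 106, 77.7 and 68.1 CPM in Poly-E, against 32.1, 28.0, 25.6 and 24.7 in Ortho-E. Ypel4-null levels were 99.9, 103, 58.5 and 73.5 CPM in Poly-E, against 21.6, 14.8, 17.4 and 26.0 in Ortho-E. The populations were far apart in both genotypes, and within Poly-E replicates 1 and 2 of both genotypes were above replicates 3 and 4. Fdft1 fell by 1.64 in Ypel4+/+, or 3.12-fold (SE 0.16, adjusted p = 1.01e-09), and by 1.88 in Ypel4-/-, or 3.68-fold (SE 0.18, adjusted p = 2.15e-10). Exons of Fdft1 share 767 bases with Ctsb on the opposite strand, and Ctsb had 150461 counts over the 16 libraries against 6665 for Fdft1. The kit does not mark strand and reads over both genes were not counted, so the Fdft1 level comes from its other exon bases and is uncertain to that extent.

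Sqle (ENSMUSG00000022351, chromosome 15, 59315077 to 59331192, + strand, GRCm38) encodes squalene epoxidase, a rate-limiting enzyme of the later pathway. The Ypel4+/+ libraries held 14, 13.2, 19.7 and 16.2 CPM in Poly-E, compared with 2.96, 2.29, 3.66 and 4.2 in Ortho-E. The Ypel4-/- libraries held 12.3, 7.9, 19.7 and 17.2 CPM in Poly-E, compared with 3.6, 2.6, 7.22 and 4.25 in Ortho-E. The groups did not overlap, although Ypel4-/- Ortho-E replicate 3 came close to the lowest Poly-E library of its genotype, replicate 2. Sqle fell by 2.17 in Ypel4+/+, or 4.49-fold (SE 0.25, adjusted p = 1.82e-08), and by 1.57, or 2.96-fold, in Ypel4-/- (SE 0.32, adjusted p = 0.000258).

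Lss (ENSMUSG00000033105, chromosome 10, 76531588 to 76557138, + strand, GRCm38) encodes lanosterol synthase, which closes the sterol rings, and had few counts in every library. In Ypel4+/+ it had 5, 6, 18 and 11 counts in Poly-E (0.898, 1.16, 1.19 and 0.957 CPM) and 0, 0, 2 and 1 in Ortho-E (0, 0, 0.666 and 0.233 CPM). In Ypel4-/- it had 4, 3, 7 and 14 counts in Poly-E (0.609, 0.607, 0.966 and 0.72 CPM) and 2, 3, 1 and 3 in Ortho-E (0.9, 1.11, 0.328 and 0.579 CPM). The populations were apart in Ypel4+/+ and overlapped in Ypel4-/-. The log2 fold change was −1.9 in Ypel4+/+ (SE 0.77, interval −3.78 to −0.03, adjusted p = 0.0354) and 0.06 in Ypel4-/- (SE 0.63, −1.49 to 1.6, adjusted p = 0.945). As shares of library totals, the pooled Ortho-E level was 0.103 of the Poly-E level in Ypel4+/+ (3 against 40 counts, exact Clopper-Pearson interval 0.0203 to 0.322) and 0.387 in Ypel4-/- (9 against 28 counts, 0.161 to 0.844), intervals that cover counting error only. On library totals the log2 fold change of Lss was −3.1 in Ypel4+/+ and −1.3 in Ypel4-/-, beside medians of −1.45 and −1.47 over all genes. The Ypel4+/+ call was lost under 13 of 21 alternatives, among them without Ortho-E replicate 1, 2 or 4 or Poly-E replicate 2, 3 or 4 (adjusted p from 0.0618 to 0.0995), with the replicate block (0.0506) and with DESeq2 (0.0994). Lss shares 381 exon bases with 4930483K19Rik, which had 1 count against 80 for Lss.

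Cyp51 (ENSMUSG00000001467, chromosome 5, 4081145 to 4104746, - strand, GRCm38) encodes lanosterol 14-alpha demethylase, the first step after lanosterol. Wild-type levels were 3.23, 4.45, 4.04 and 3.48 CPM in Poly-E, against 1.69, 1.71, 5.0 and 1.87 in Ortho-E. Ypel4-null levels were 3.5, 3.04, 8.0 and 3.96 CPM in Poly-E, against 0.9, 1.11, 1.97 and 1.93 in Ortho-E. Ypel4+/+ Ortho-E replicate 3 was above every Poly-E library of its genotype and made the groups overlap, whereas in Ypel4-/- they were apart. Cyp51 fell by 1.41 in Ypel4-/-, or 2.65-fold (SE 0.39, adjusted p = 0.00244); in Ypel4+/+ the log2 fold change was −0.49 (SE 0.37, −1.38 to 0.41, adjusted p = 0.261), and without Ortho-E replicate 3 it was −1.05 (adjusted p = 0.0294). Cyp51 shares 166 exon bases with Akap9 on the opposite strand, which had 831 counts against 366 for Cyp51.

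Insig1 (ENSMUSG00000045294, chromosome 5, 28071363 to 28078662, + strand, GRCm38) encodes an endoplasmic reticulum protein that holds back SREBP2 activation when sterols are plentiful. The Ypel4+/+ libraries held 14.4, 19.0, 20.8 and 16.7 CPM in Poly-E, compared with 17.3, 13.1, 11 and 11.4 in Ortho-E. The Ypel4-/- libraries held 15.7, 15.8, 19.2 and 18.0 CPM in Poly-E, compared with 7.65, 5.56, 13.8 and 10.4 in Ortho-E. The populations overlapped in Ypel4+/+ through Ortho-E replicate 1 and were apart in Ypel4-/-. Insig1 fell by 0.7 in Ypel4-/-, or 1.62-fold (SE 0.21, adjusted p = 0.00373), and its log2 fold change in Ypel4+/+ was −0.42 (SE 0.19, −0.89 to 0.06, adjusted p = 0.0667). With the replicate block, which pairs same-numbered libraries of the populations, the Ypel4+/+ value was −0.42 with an adjusted p of 0.0272, and without Ortho-E replicate 1 it was −0.56 with an adjusted p of 0.0196. Within the set of 7 libraries it was 0.01 (adjusted p = 0.983) and outside it −0.68 (adjusted p = 0.00202).

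Srebf2 (ENSMUSG00000022463, chromosome 15, 82147266 to 82205376, + strand, GRCm38) encodes SREBP2 itself. Wild-type levels were 63.0, 66.8, 99.2 and 84.0 CPM in Poly-E, against 42.2, 37.7, 55.6 and 50.4 in Ortho-E. Ypel4-null levels were 56.0, 61.5, 85.7 and 83.6 CPM in Poly-E, against 27.9, 33.8, 52.2 and 60.4 in Ortho-E. The populations were apart in Ypel4+/+ and overlapped in Ypel4-/-, where Ortho-E replicate 4 exceeded Poly-E replicate 1. Srebf2 fell by 0.71 in Ypel4+/+, or 1.63-fold (SE 0.16, adjusted p = 0.000327), and by 0.55, or 1.46-fold, in Ypel4-/- (SE 0.2, adjusted p = 0.0245). The Ypel4-/- call was lost without Ortho-E replicate 1 (adjusted p = 0.0524) or 2 (0.0889), without Poly-E replicate 3 (0.0645) or 4 (0.0958), and with edgeR's own low-count filter (0.0825).

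Counted by ranges alone, every Ortho-E library was below every Poly-E library for 6 of the 8 genes in Ypel4+/+, where 30.6% of all genes did the same, and for 6 in Ypel4-/- (32.4%). Hmgcs1, Idi1, Fdft1 and Sqle were apart in both genotypes.

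Of the 8 genes, 3 also differed between the libraries of Poly-E that belonged to the set of 7 and those that did not. Fdft1 was at 99.9 to 106 CPM in the set and 58.5 to 77.7 outside it, while Sqle was at 7.9 to 14 against 16.2 to 19.7 and Srebf2 at 56.0 to 66.8 against 83.6 to 99.2. Fdft1 thus lay in the opposite direction from Sqle and Srebf2. The other 5 genes overlapped; of all genes, 16.4% had ranges that did not overlap. The fall in Ortho-E held on each side of the split for these genes in Ypel4+/+, with log2 fold changes inside and outside the set of −1.65 and −1.47 for Fdft1, −2.22 and −2.11 for Sqle and −0.58 and −0.73 for Srebf2. In Ypel4-/- the values were −1.98 and −1.63 for Fdft1, −1.26 and −1.87 for Sqle and −0.82 and −0.66 for Srebf2, and those of Cyp51 and Insig1 were −1.60 and −1.57, and −0.79 and −0.77. The set holds 1 Ypel4-/- Ortho-E library, so the values within it for that genotype are given with no test. The split was chosen after seeing the data.

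Relative to exon length, the order of mean levels in Ypel4+/+ Poly-E was Fdft1 (30.7 ± 6.28 CPM per kb, SD, n = 4), Srebf2 (15.7 ± 3.35), Insig1 (5.72 ± 0.898), Sqle (2.84 ± 0.522), Idi1 (2.8 ± 0.588), Hmgcs1 (1.18 ± 0.122), Cyp51 (0.861 ± 0.124) and Lss (0.0975 ± 0.0135). Sqle and Idi1 differed by less than their spread. In Ypel4+/+ Ortho-E, Fdft1 at 9.66 CPM per kb and Srebf2 at 9.32 differed by less than their spread, and Insig1 followed at 4.27. Hmgcs1, Idi1, Sqle and Cyp51 lay together between 0.581 and 0.754, also within their spread, and Lss was at 0.0208. In Ypel4-/- Ortho-E, Srebf2 at 8.73 CPM per kb and Fdft1 at 6.98 differed by less than their spread, whereas in Ypel4-/- Poly-E they were at 14.4 and 29.3. The length used for Fdft1, 2860 bases, includes the 767 shared with Ctsb, where reads were not counted. The Fdft1 values per kb are therefore too low against those of Srebf2. The order of Fdft1 and Srebf2 in Ortho-E is not settled by these values, since a length without the shared bases would raise Fdft1 and not Srebf2.

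The genotype comparisons gave no call among the 8 genes in either population. In Poly-E the log2 fold changes of Ypel4-/- over Ypel4+/+ lay between −0.52 for Lss and 0.29 for Cyp51, and every adjusted p was 1.0. The intervals were −0.39 to 0.3 for Insig1, −0.52 to 0.27 for Srebf2, −0.54 to 0.41 for Fdft1, −0.43 to 0.52 for Idi1, −0.6 to 0.43 for Hmgcs1 and −0.67 to 0.42 for Sqle. They were wider for Cyp51 (−0.38 to 0.97) and Lss (−1.47 to 0.43). Of all 12395 genes tested, 0.00807% were called, which is 1 gene, the targeted Ypel4 itself (4 genes with the replicate block). An unadjusted p under 0.05 was found for 271 genes, none of them a member.

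In Ortho-E no member was called either, and the intervals were wider for 7 of the 8, Fdft1 being the exception. Fdft1 was closest, with a log2 fold change of −0.43 (interval −0.87 to 0.01, unadjusted p = 0.0238 and adjusted p = 0.996 by edgeR), from 27.6 ± 3.3 CPM in Ypel4+/+ to 20.0 ± 4.92 in Ypel4-/- (SD, n = 4 each), and replicate 4 of Ypel4-/- was above replicates 3 and 4 of Ypel4+/+. Insig1 was at −0.44 (−1.05 to 0.17), Srebf2 at −0.08 (−0.51 to 0.35), Sqle at 0.39 (−0.49 to 1.28) and Cyp51 at −0.73 (−1.95 to 0.48). Hmgcs1 was at −0.08 (−1.23 to 1.06), Idi1 at −0.02 (−1.19 to 1.16) and Lss at 1.31 (−1.06 to 3.68). The intervals of Hmgcs1, Idi1 and Lss pass 2-fold in both directions, and those of Fdft1 and Srebf2 reach it in neither. Those of Insig1 and Cyp51 pass it downward only, and that of Sqle upward only. All of these intervals rest on 6 degrees of freedom, which the edgeR test does not use. Of 10521 genes tested, 0.0285% were called, or 3 genes with Ypel4 among them, and 387 had an unadjusted p under 0.05. DESeq2 called 2 genes in Poly-E, 4 in the Ortho-E comparison and none of the members. The B cell list summed to 27.4 to 38.2 CPM of library totals in Ypel4-/- Ortho-E and 15.4 to 22.4 in Ypel4+/+ Ortho-E, and to 33.4 to 52.5 and 23.6 to 38.5 in Poly-E; its part in these values was not tested.

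Whether the step from Poly-E to Ortho-E differed between the genotypes was tested by the interaction over all 16 libraries. No member was called, and of the 13318 genes tested 0% were; 364 had an unadjusted p under 0.05, with no member among them, and DESeq2 and edgeR with the replicate block each called 1 gene, not a member. The Lss step differed by 1.86 on the log2 scale (interval −0.29 to 4.01, unadjusted p = 0.0664, adjusted p = 1.0 by edgeR) and the Cyp51 step by −1.02 (−2.25 to 0.21, unadjusted p = 0.0776, adjusted p = 1.0 by edgeR). So the falls of Lss called in Ypel4+/+ alone and of Cyp51 and Insig1 called in Ypel4-/- alone were not shown to differ between the genotypes, the Insig1 step differing by −0.4 (unadjusted p = 0.182, adjusted p = 1.0 by edgeR). Those of Fdft1, Sqle, Idi1, Hmgcs1 and Srebf2 differed by −0.37, 0.5, −0.11, 0.03 and 0.05.

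**Figure D3:**
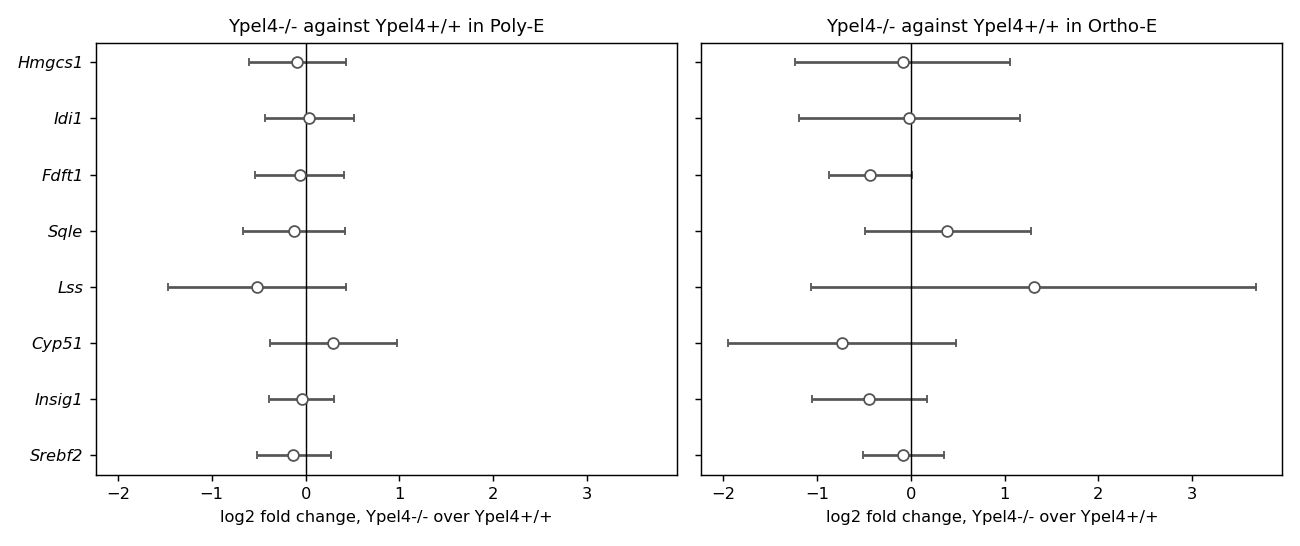
Log2 fold change of Ypel4-/- over Ypel4+/+ for the 8 genes, by population, with 95% intervals. No gene was called in either population; the widest interval is that of Lss in Ortho-E, from −1.06 to 3.68.

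The rest of the pathway was read from 3 lists. Of 16 other enzymes of sterol and isoprenoid synthesis, 15 were tested in each genotype; 7 fell and 1 rose in Ortho-E in each (over all genes, 32.1% fell and 26.4% rose in Ypel4+/+, and 31.5% and 29.5% in Ypel4-/-), with medians of −1.33 in Ypel4+/+ and −0.67 in Ypel4-/-. Among the lowest of the called genes in Ypel4+/+ were Lbr, the lamin B receptor and a sterol reductase, at −1.91 (adjusted p = 7.73e-13; −1.83 in Ypel4-/-), and Sc5d, a sterol desaturase, at −1.76 (0.000862; −1.98 in Ypel4-/-). Ggps1, which makes geranylgeranyl diphosphate for protein prenylation and stands off the branch to sterols, rose by 3.02 in Ypel4+/+ (SE 0.2, adjusted p = 2.2e-12) and by 3.3 in Ypel4-/- (SE 0.17, adjusted p = 1.24e-17). It also rose on library totals, by 1.74 and 1.88.

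Uptake, transport and regulation genes moved both ways. Of 27 in the list, 23 were tested in Ypel4+/+, of which 10 fell and 8 rose, and 24 in Ypel4-/-, of which 9 fell and 8 rose, with medians of −0.3 and 0.16. The shares over all genes were 32.1% lower and 26.4% higher in Ypel4+/+, and 31.5% and 29.5% in Ypel4-/-. Scarb1, the HDL receptor, fell by 2.27 in Ypel4+/+ (adjusted p = 1.84e-11) and by 2.3 in Ypel4-/- (1.55e-13). Lrp8, a lipoprotein receptor, fell by 2.98 in Ypel4+/+ and 2.31 in Ypel4-/- (−1.83, adjusted p = 0.0684 by edgeR, in replicates 1 and 2 alone, and −1.27 in the set of 7), and Tmem97, a sterol-responsive membrane protein, by 2.32 and 2.84. Both had few counts in Ortho-E. Over the libraries of a group, Lrp8 summed to 5 in Ypel4+/+ and 8 in Ypel4-/-, and Tmem97 to 7 and 6.

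The 3 called genes of this list with the highest fold change in Ypel4+/+ act on cholesterol that is already in the cell. They are 3 of the 8 that rose, and the function of the others is not described here. Npc1, which exports cholesterol from lysosomes, rose by 3.1 in Ypel4+/+ (adjusted p = 3.46e-13) and 2.7 in Ypel4-/- (1.07e-13). Lipa, the lysosomal acid lipase that frees cholesterol from its esters, rose by 2.74 (adjusted p = 1.95e-11) and 3.51 (4.14e-16). Soat1, which esterifies cholesterol, rose by 2.53 in Ypel4+/+ (SE 0.98, adjusted p = 0.0294), a call lost without Ortho-E replicate 1 (0.0621) or Poly-E replicate 4 (0.068) and on library totals (1.32, adjusted p = 0.229 by edgeR). It rested on 8 counts in Ortho-E against 4 in Poly-E, and Soat1 had too few counts to be tested in Ypel4-/-. Of 14 fatty acid synthesis genes, 9 were tested in each genotype, and 3 fell and 3 rose in each, a share near that of all genes (32.1% and 26.4% in Ypel4+/+, 31.5% and 29.5% in Ypel4-/-). Acaca, an acetyl-CoA carboxylase, fell by 2.36 in Ypel4+/+ and 1.81 in Ypel4-/-, and Fads2, a fatty acid desaturase, by 1.8 and 1.22. In Ortho-E, Acaca summed to only 4 counts in Ypel4+/+ and 9 in Ypel4-/-, and Fads2 to 10 and 15. Acss2, which makes acetyl-CoA from acetate, rose by 1.9 and 2.27. Scd2, a stearoyl-CoA desaturase, rose by 1.64 and 1.59 on the TMM scale (0.99 in Ypel4-/- without Ortho-E replicate 4, adjusted p = 0.108 by edgeR) and was at 0.36 and 0.21, not called, on library totals. No gene of the 3 lists was called in either genotype comparison or in the interaction, where the unadjusted p was under 0.05 for 1 uptake, transport and regulation gene in Ortho-E and for 3 in the interaction; DESeq2 also called none.

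**Figure D4:**
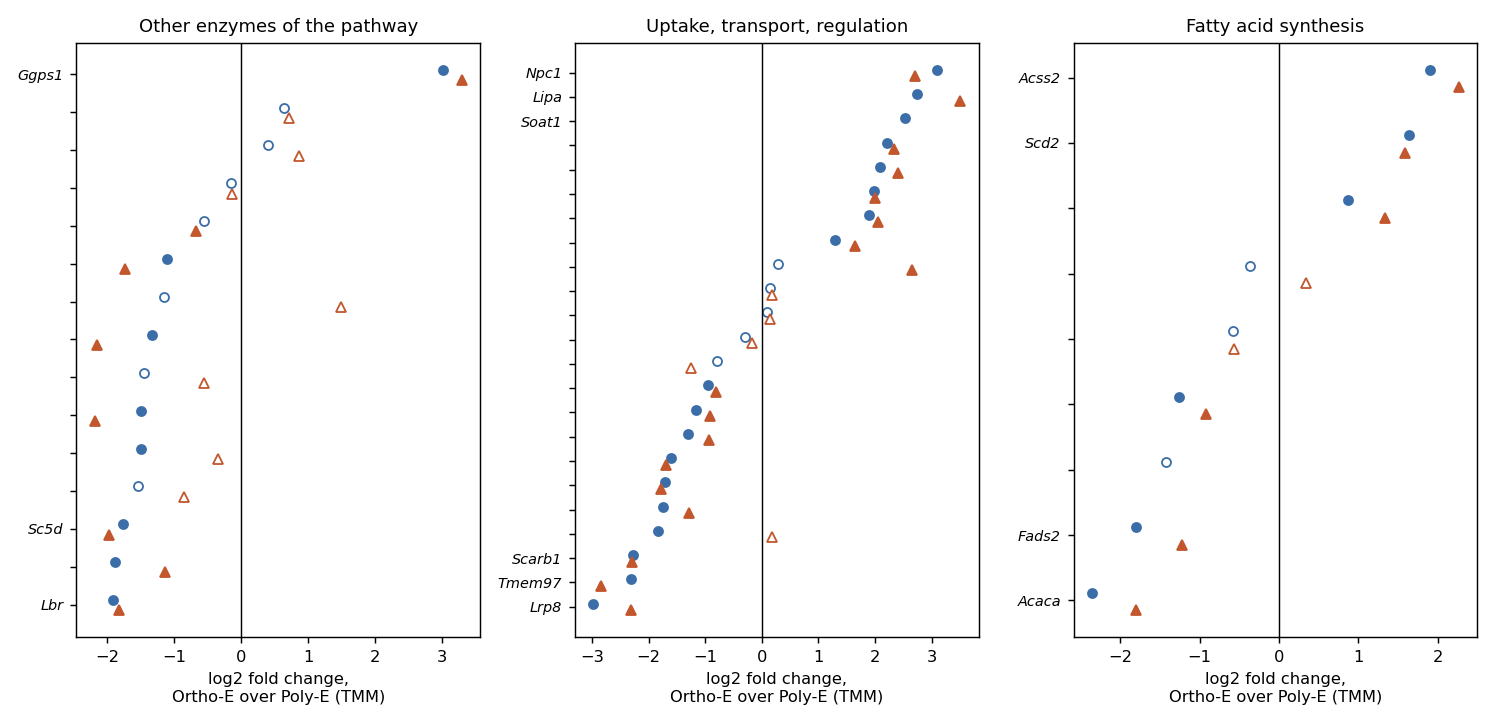
Log2 fold change of Ortho-E over Poly-E for the genes of the 3 other lists, Ypel4+/+ as circles and Ypel4-/- as triangles, filled where called. Only genes given by name in the text are labelled. Other enzymes lie mostly below 0, with Ggps1 above 3 in both genotypes, while the uptake, transport and regulation genes spread to both sides.

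Within the groups, the correlations between the 8 genes were uneven. Lss had 0 to 3 counts and Idi1 0 to 19 in each Ortho-E library, so counting error enters these values. Whether the 8 genes vary together cannot be settled from them. Over the 16 libraries, the correlation of the deviations from the group means ran from −0.593 (Lss with Insig1) to 0.721 (Sqle with Srebf2) over the 28 pairs of members, with a median of 0.273 and 20 pairs above 0. These are descriptions over libraries that share the split described above. The genes outside the 8 whose deviations were most like the mean deviation of the members, of 5275 with a mean of at least 50 counts, were Ccdc117 (r = 0.914), Arhgdia (0.896), Topbp1 (0.892), Mrs2 (0.878), Fam109b (0.873), Alg6 (0.871), Dus1l (0.868), Ppp1r12b (0.861), Agtr1a (0.859) and Atp13a3 (0.845). Of these 10, 0 were among the first 10 in Poly-E alone, 4 in Ortho-E alone, 3 with replicates 1 and 2 against 3 and 4 removed and 6 with the set of 7 libraries removed. Of the 20 genes of the other lists that were ranked, Rnf145 came highest, at position 303 (r = 0.659). The mean deviation that all were compared with includes members of few counts. In Ypel4+/+ Ortho-E, Idi1 deviated by −2.43 in replicate 2, at 0 counts, and by 1.46 in replicate 4, at 19 counts.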

How the data were processed

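RNA from Poly-E and Ortho-E was sequenced as TruSeq libraries without strand. Per the labels and file headers, the authors deposited whole-number counts for each gene, made by featureCounts 1.6.4 from read pairs over exons on GRCm38, with reads that mapped to several places or to several genes left out. Groups and replicate numbers came from sample titles. The deposited counts were tested with edgeR 4.0.16 in R 4.3.3 (quasi-likelihood, robust, TMM, only genes whose counts summed to 10 or more), with Benjamini-Hochberg adjustment over all genes and a threshold of 0.05. The members, lists and tests were chosen with earlier results of these data known. The named genes were the 8 members, Ypel4, any list gene called for genotype, the 3 lowest and the 3 highest called genes of the enzyme and of the uptake lists and the 2 lowest and 2 highest of the fatty acid list in Ypel4+/+, and the 10 genes most like the members' mean deviation; other genes named beside them (Ctsb, Akap9, Rnf145 and cell type markers) describe libraries, overlaps or ranks. Some genes that this rule picks are not reported here.

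Intervals are 95% intervals of the fold change, from the SE and a t quantile at 6 degrees of freedom (12 for the interaction). The edgeR test sets its own degrees of freedom, so an interval can reach 0 where the unadjusted p is under 0.05. Depth of 2670173 to 12451234 counts limits the genes of few counts. Nothing in the labels says whether libraries of a group came from separate mice beyond their numbers, so p-values measure the spread between these libraries, which may be technical. No library was a copy of another: over the 24 pairs within groups, the lowest chi-square per degree of freedom was 4.01. Same-numbered Poly-E and Ortho-E libraries also share a number in the deposited library names, read as the mouse, which no label states. Their deviations from the group means correlated in all 4 Ypel4+/+ pairs (r of 0.416 to 0.605). In Ypel4-/-, r was 0.324 to 0.505 for 3 pairs and 0.082 for replicate 2, whose libraries lie on different sides of the split and did not correlate best with each other; whether a library was exchanged was not tested. Same-numbered Poly-E libraries of the 2 genotypes, which share a number but no mouse, also correlated (r of 0.232 to 0.632). Only 1 of these 4 pairs correlated best with its own number, and replicate 1 reached 0.487 with another number. Alternatives were DESeq2 1.42.0, its size factors, library totals, other count filters, no globin genes, all 16 libraries in 1 fit, the replicate block, replicates 1 and 2 or 3 and 4 alone or as a term, and each library left out; those on the set of 7 libraries were chosen after seeing the data.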

Additional observations from a re-analysis of the deposited data

Results flagged for a closer look

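Cyp51 in Ypel4+/+ Ortho-E replicate 3 was far from the other libraries of its group: it was at 5.0 CPM on the TMM scale and the nearest library was at 1.87, a gap of 0.946 of the range of the group, more than Dixon's 95% critical value for 4 samples. Chance alone would mark about 1 in 20 groups, and 36 groups were examined. Its effect on the Cyp51 comparison of Ortho-E with Poly-E is given with that gene; its cause was not tested.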

How the results depend on the processing

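No member was called for genotype or for the interaction under any alternative run. In Ypel4+/+, 5 members were called for Ortho-E against Poly-E, 4 to 8 under the other alternatives (8 on library totals) and 4 to 6 without 1 library; in Ypel4-/- 6 were called, 4 to 7 and 5 to 6. Fatty acid genes called in Ypel4-/- dropped from 6 to 3 in replicates 1 and 2 alone, where fewer libraries enter the fit. The set of 7 holds 1 Ypel4-/- Ortho-E library, so list counts from it are not given for that genotype. The Ypel4-/- range of members above includes that fit. Over all genes, calls ran from 1 to 7 (main 1) for genotype in Poly-E and from 0 to 2 (main 0) for the interaction. In Ortho-E the main fit called 3 for genotype, and the count in the set of 7 alone (2 libraries against 1) is not given.

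With the replicate block, 5 members were called in Ypel4+/+ and 6 in Ypel4-/-: Lss in Ypel4+/+ was lost (−1.88, adjusted p = 0.0506 by edgeR) and Insig1 was gained (−0.42, adjusted p = 0.0272 by edgeR), and no other member's call changed; over all genes the block gave 15 genotype calls in Ortho-E. Between genotypes in Ortho-E the numbers did not pair the libraries (r from −0.0936 to 0.304).

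Directions turned mainly for members that were not called. For Ortho-E against Poly-E, Insig1 in Ypel4+/+ was 0.01 in replicates 1 and 2 alone and in the set of 7, and Lss in Ypel4-/- was −1.3 on library totals, −0.08 with all 16 libraries, −0.65 in replicates 3 and 4 and −0.22 outside the set (−0.21 to 0.25 without 1 library). For genotype in Poly-E, Hmgcs1 was 0.05, Idi1 −0.26 and Cyp51 −0.22 in replicates 1 and 2, which are the set of 7 there, Sqle was 0.02 in replicates 3 and 4, and Insig1 was 0.01 on library totals; without 1 library the ranges were −0.11 to 0.14 for Idi1, −0.18 to 0.08 for Fdft1, −0.29 to 0.05 for Sqle, −0.07 to 0.42 for Cyp51 and −0.12 to 0.04 for Insig1. In Ortho-E, Hmgcs1 was 0.35 in replicates 3 and 4 and 0.13 outside the set (−0.36 to 0.09 without 1 library), Idi1 was 0.08 with DESeq2, 0.01 on library totals, 0.06 with the replicate block, 0.04 with the replicate term and 1.2 in replicates 1 and 2 (−0.35 to 0.49), Insig1 was 0.06 and Srebf2 0.07 in replicates 3 and 4 (Srebf2 −0.24 to 0.05). The interaction in the set of 7 was −0.87 for Hmgcs1, 1.87 for Idi1 and −0.36 for Srebf2, and Srebf2 was −0.06 with a term for the set; without 1 library the ranges were −0.31 to 0.22 for Hmgcs1, −0.43 to 0.48 for Idi1 and −0.16 to 0.23 for Srebf2. The causes were not tested. Low counts limit Lss, Idi1, Hmgcs1, Cyp51 and Sqle in Ortho-E. Sqle had 4 to 18 counts in the Ypel4+/+ Ortho-E libraries and 7 to 22 in those of Ypel4-/-.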
